A study of Mus musculus with 3 samples.

Results

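Hepatocytes of wild-type (WT) mice kept on a 60% high fat diet (HFD) were compared with hepatocytes of WT mice kept on the same diet with 0.25% hyodeoxycholic acid (HDCA) for 12 weeks. Another group on normal diet (ND) was used as a reference level only. All mice shared the WT genotype, and the cells were prepared by perfusion of the liver with collagenase. Each diet had 1 library of droplet single-cell RNA sequencing, in which each captured molecule carries a unique molecular identifier (UMI) and is counted once near its 3′ end. The cells described here were the barcodes with at least 200 detected genes, at most 50% of counts from mitochondrially encoded genes, fewer than 3 of 8 endothelial markers and fewer than 3 of 7 markers of Kupffer cells, the macrophages that live in the liver. These rules kept 2863 HFD cells and 2942 HDCA cells, 5805 of the 16918 barcodes of the 3 libraries, and 2669 ND cells. The study's title names suppression of fat in the liver, the gut hormone GLP-1, invariant natural killer T cells and the fatty acid receptor PPARα, so the genes of these systems in hepatocytes are given with the rest. The labels used here do not state the sex of the mice, the number pooled in a library or the hour of isolation. Since each diet has 1 library, differences could not be checked against replicates and carry no p-value. Intervals are 95% intervals for counting error only.

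Bile acids are made from cholesterol in hepatocytes, and Cyp7a1 is the rate-limiting enzyme of the classical route. Bile acids returning from the gut activate the nuclear receptor FXR, which lowers Cyp7a1 through the repressor SHP and through a hormone from the intestine. HDCA is a secondary bile acid, formed by gut bacteria and abundant in pigs. The rodent enzyme Cyp2c70 makes muricholic acids, so mouse bile differs from human bile. Mouse hepatocytes also express many genes at different levels in males and females, a pattern set largely by the timing of growth hormone pulses and the transcription factor STAT5B. The major urinary proteins (Mup), pheromone carriers encoded by a cluster of near-identical genes on chromosome 4, are among the best known male-biased products.

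Several of the largest differences between the libraries were in genes that have a near-identical neighbour, so the sequences just before their starts are shown first, from the RefSeq promoter table on build GRCm38.p6. The first pair is Cyp2b9 (chr7:26173259-26173408, plus strand) and Cyp2b13 (chr7:26061345-26061494, plus strand), female-biased cytochromes P450 of which both were higher with HDCA. Each line holds the last 150 bases before the annotated start, 5′ to 3′, and capitals mark bases that differ in the alignment of the pair, 1 of 150 columns here.
Cyp2b9: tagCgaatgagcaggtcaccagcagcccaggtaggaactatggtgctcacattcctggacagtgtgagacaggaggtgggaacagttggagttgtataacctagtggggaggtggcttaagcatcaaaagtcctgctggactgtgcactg
Cyp2b13: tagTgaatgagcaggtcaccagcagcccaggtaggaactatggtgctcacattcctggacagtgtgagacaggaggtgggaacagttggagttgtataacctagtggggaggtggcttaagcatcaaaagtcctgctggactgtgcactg
Over 250 bases the pair was 99.2% identical. The second pair is Selenbp2 (chr3:94693423-94693572, plus strand) and Selenbp1 (chr3:94932933-94933082, plus strand), which went apart in level although their upstream sequences are alike. Capitals mark 6 of 140 aligned columns that differ, and over 250 bases the pair was 89.2% identical.
Selenbp2: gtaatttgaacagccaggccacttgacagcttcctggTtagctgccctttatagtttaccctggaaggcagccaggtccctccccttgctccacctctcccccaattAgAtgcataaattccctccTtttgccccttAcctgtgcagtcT
Selenbp1: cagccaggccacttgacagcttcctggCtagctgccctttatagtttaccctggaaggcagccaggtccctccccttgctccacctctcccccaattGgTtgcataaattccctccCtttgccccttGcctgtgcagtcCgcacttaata
A further set shows Mup17 (chr4:61595833-61595982, minus strand) and Mup9 (chr4:60421953-60422102, minus strand), which were lower with HDCA, beside Mup3 (chr4:62087318-62087467, minus strand), which was nearly level. Capitals in Mup9 and Mup3 mark bases that differ from or are missing in Mup17, and the alignments held 3 of 144 and 45 of 136 differing columns, gaps included.
Mup17: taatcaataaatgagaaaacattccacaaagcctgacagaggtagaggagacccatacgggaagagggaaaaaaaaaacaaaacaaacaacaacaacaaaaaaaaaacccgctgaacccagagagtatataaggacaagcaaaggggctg
Mup9: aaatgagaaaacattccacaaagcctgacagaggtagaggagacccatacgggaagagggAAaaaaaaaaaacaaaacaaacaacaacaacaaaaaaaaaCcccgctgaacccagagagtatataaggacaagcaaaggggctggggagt
Mup3: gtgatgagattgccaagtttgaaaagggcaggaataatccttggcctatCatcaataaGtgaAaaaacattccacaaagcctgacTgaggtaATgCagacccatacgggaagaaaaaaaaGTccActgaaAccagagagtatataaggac

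The kept cells expressed all 12 hepatocyte markers, which summed to 103084 counts per 1000000 nuclear-encoded counts (CPM) in HFD and 120447 CPM in the HDCA library. The 8 endothelial markers summed to 3.24 and 3.49 CPM, the 7 Kupffer markers to 2.97 and 3.84 CPM, and the 9 stellate markers to 4.32 and 9.94 CPM. The bile duct markers Krt19, Krt7 and Epcam were at 0 in every library, while the 7 bile duct markers summed to 181 CPM in HFD and 153 CPM in the HDCA library. Markers of T and natural killer cells summed to 95 counts in HFD and 126 counts with HDCA, of which Zbtb16 alone gave 90 and 86, while the other 10 summed to 5 counts (1.35 CPM) and 40 counts (6.98 CPM). The markers of B and plasma cells summed to 146 and 124 CPM, and those of neutrophils and monocytes to 21.1 and 6.45 CPM. The libraries differed in depth and quality: median UMIs per kept cell were 869 in HFD and 1123.5 in the HDCA library, mitochondrial counts were 13.7% and 11.1% of the kept cells' counts, 742 and 303 kept cells had more than 20% of them, and 45.5% and 60.4% of the barcodes were kept. Haemoglobin counts, from red blood cells, came from 15 HFD cells (345 CPM) and 6 HDCA cells (26.5 CPM). The part of depth and mitochondrial share in the differences below was not tested beyond the settings given in the closing section. The HFD and HDCA libraries shared 1 kept barcode.

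Among 6662 genes with at least 100 counts over both libraries, called measured here, 89 stood 2-fold or more above HFD with HDCA (1.34%) and 91 stood 2-fold or more below it (1.37%). The median log2 ratio, HDCA against HFD after adding 0.5 to each count, was 0.04, and 97.3% of measured genes lay within 2-fold. A ratio above 0 was found for 3723 of the 6662 genes. At least 4-fold differences numbered 13 higher and 29 lower genes. The lower genes summed to 38581 CPM in HFD and 11055 CPM with HDCA, and the higher genes to 2063 and 5906 CPM. Of the lower genes, 12 were Mup genes and 4 were haemoglobin genes. Of the 89 higher genes, 28 had more CPM in the left-out endothelial and Kupffer barcodes than in the kept cells, and so had 22 of the 91 lower genes. ND lay between the other libraries for 50 of the higher and 48 of the lower genes. The HDCA value lay within 2-fold of ND for 49 of the 91 lower genes and the HFD value for 40, against 50 and 57 of the 89 higher genes.

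**Figure D1:**
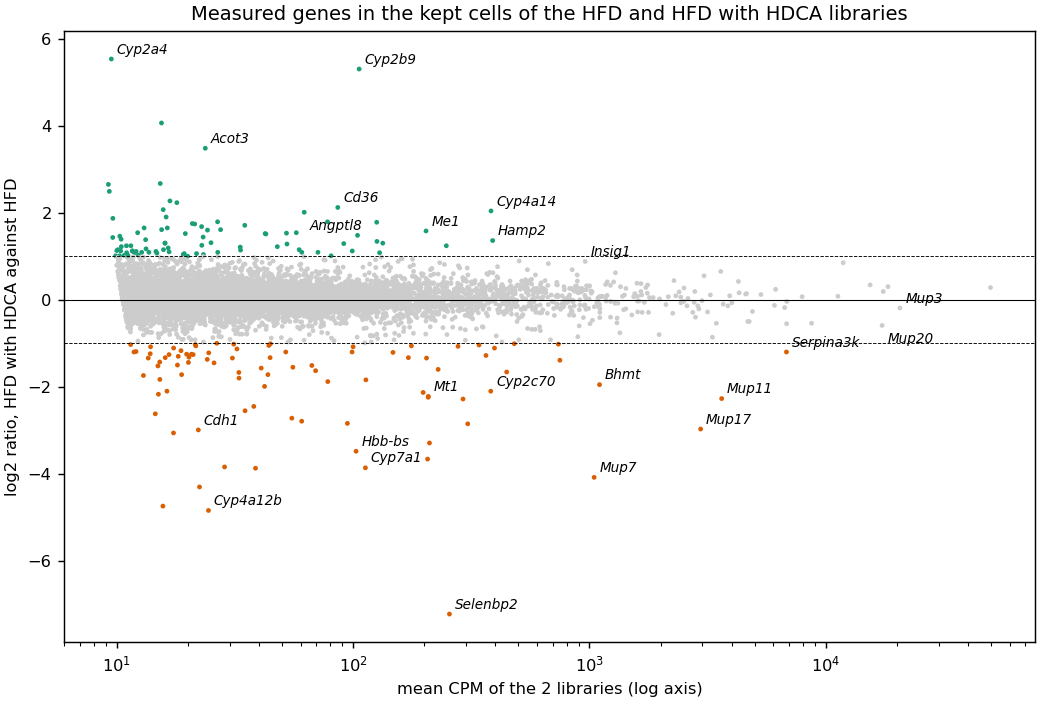
Log2 ratio of the HDCA against the HFD library (vertical) by mean CPM of both on a log axis (horizontal), 1 point for each of 6662 measured genes, with green for genes 2-fold or more above HFD, orange for those 2-fold or more below and dashed lines at 2-fold. Selenbp2 is the lowest point at -7.22, and Mup7, Mup17 and Mup11 stand apart among abundant genes.

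Bile acid synthesis genes were lower with HDCA in most members. Of 16 measured genes on a list of 18, 3 were lower and 0 higher by at least 2-fold, and 14 had a ratio below 0, with a median log2 ratio of -0.45 against 0.04 over all measured genes. Cyp7a1 stood at 38.0 CPM in ND, 211 CPM in HFD and 14.5 CPM with HDCA. Its level was thus highest in HFD and lowest with HDCA, a 14.5-fold difference (log2 ratio -3.86, interval -4.21 to -3.54). Cyp2c70, the muricholic acid enzyme, stood at 575, 619.8 and 145 CPM, 4.27-fold lower with HDCA (-2.10, -2.21 to -1.98). ND and HFD were alike for this gene and the HDCA library alone was low. Cyp7b1, an oxysterol hydroxylase of the alternative route that is also male-biased, stood at 193, 293 and 116 CPM (-1.34, -1.48 to -1.20). The first enzyme of the alternative route, Cyp27a1, and the cholic acid enzyme Cyp8b1 did not reach 2-fold, with log2 ratios of -0.92 (174, 195 and 103 CPM) and -0.82 (133, 152 and 86.2 CPM). Scp2, which carries sterols into the peroxisome, had 6993, 10329 and 7097 CPM (-0.54), and the peroxisomal enzymes Amacr and Acox2 had ratios of -0.53 and -0.52. Bile acid conjugation genes were near level, with Baat at -0.33 and Slc27a5 at 0.06.

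Taurine, to which mouse bile acids are joined, is made in hepatocytes by Cdo1 and Csad. Csad had 409 CPM in ND, 54.8 CPM in HFD and 154 CPM with HDCA, so the HFD library was lowest and the HDCA library lay between. The ratio of HDCA to HFD was 2.80-fold (log2 1.48, 1.26 to 1.71), and 0.84 on the log2 scale in cells thinned to 500 UMIs. Slc6a6, the taurine carrier, had 191, 102 and 179 CPM (0.81, 0.64 to 0.99) and Cdo1 had 966, 1081 and 1138 CPM (0.07). All 5 measured genes of taurine supply had a ratio above 0, and 1 of them, Csad, was past 2-fold.

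Of 12 measured bile acid carriers, 1 was higher and 1 lower by at least 2-fold. Slco1a4, an uptake carrier of the sinusoidal membrane that is female-biased, had 45.7, 14.3 and 35.8 CPM (1.31, 0.88 to 1.78). Slco1a1, a male-biased carrier of the same family, had 406, 643 and 319 CPM (-1.01, -1.10 to -0.92, and -0.70 in the pericentral range of the lobule score described below). The Slco1a4 ratio was 0.84 in cells thinned to 500 UMIs. The 2 carriers thus differed in opposite directions, with ND between HFD and HDCA for Slco1a1 and above both for Slco1a4. Slc10a1, the main sodium-dependent uptake carrier, was level at 706 CPM in HFD and 684 CPM with HDCA (-0.04), and Slco1b2 likewise (0.07). The export pump Abcb11, an FXR target, had 225, 167 and 116 CPM (-0.53, -0.69 to -0.37), and Nr0b2, which encodes SHP, had 107, 77.0 and 54.8 CPM (-0.49, -0.73 to -0.26). Both FXR targets were therefore highest in ND and lowest with HDCA, within 2-fold of HFD. By range of the lobule score, Nr0b2 had ratios of -0.66 (pericentral), 0.38 (middle, -0.13 to 0.92) and -0.80 (periportal). The receptor gene Nr1h4, encoding FXR, was at 0.29 and Nr5a2, which encodes another activator of Cyp7a1, at 0.39. Of the 16 measured regulators of bile acid metabolism, 0 passed 2-fold in either direction.

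**Figure D2:**
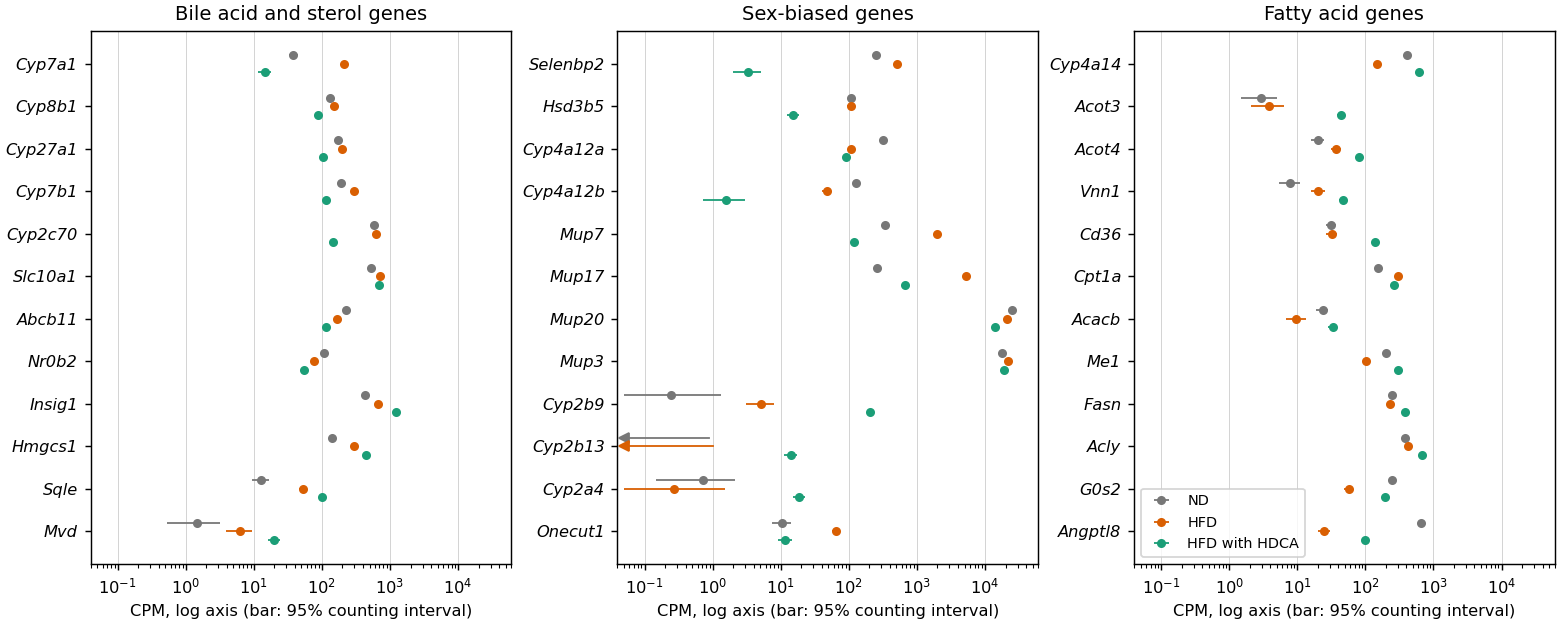
CPM (log axis) of 36 named genes in the ND, HFD and HDCA libraries, with bars for exact 95% Poisson intervals and arrows where a library had 0 counts. Cyp7a1 and Selenbp2 are lowest in the HDCA library, Cyp2b9 is highest there, and Mup3 and Slc10a1 are nearly level between HFD and HDCA.

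Sex-biased genes held the largest ratios of the comparison. Of 20 measured male-biased genes, 8 were lower and 0 higher with HDCA by at least 2-fold, and 19 had a ratio below 0, with a median of -0.85. Selenbp2 had 253 CPM in ND, 508 CPM in HFD and 3.31 CPM with HDCA, from 1880 counts in HFD and 19 with HDCA. The HDCA library was thus far below both others, 149-fold below HFD (log2 -7.22, with the bound of its interval nearest 0 at -6.61). Selenbp1, the near-identical gene shown above, had 121, 117 and 152 CPM (0.38, 0.22 to 0.55). Of 351 windows of 50 bases in the last 400 bases of the Selenbp2 transcripts in GENCODE, 45.3% also occur in Selenbp1, so part of the reads could not be told apart between them. Hsd3b5, a male-biased steroid enzyme, had 109, 106 and 15.2 CPM (-2.79, -3.15 to -2.46). Ugt2b1, a glucuronyl transferase, had 550.3, 542 and 251 CPM (-1.11, and -0.84 in the periportal range of the lobule score), and C8b of the complement pathway had 151, 138 and 60.0 CPM (-1.20). In all 3 genes ND and HFD were close and the HDCA library was low.

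The Cyp4a12 pair differed within itself. Cyp4a12b had 126 CPM in ND, 47.3 CPM in HFD and 1.57 CPM with HDCA (-4.84, -6.07 to -3.95), from 9 counts in the last. Cyp4a12a, an androgen-dependent fatty acid hydroxylase, had 314, 106 and 89.3 CPM (-0.25, -0.45 to -0.06). The 3′ ends of the pair share 47.6% of their windows, so the reads that tell them apart come from the rest of the sequence. Other male-biased genes stayed within 2-fold, with Serpina1e at -0.86, Nudt7 at -0.85, Sult2a8 at -0.76, Elovl3 at -0.63 and Cyp2d9 at 0.04.

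Among the Mup genes, 16 of 24 listed were measured, all 16 had a ratio below 0, and 12 were at least 2-fold lower, with a median of -2.28. Mup genes made up 4.51% of nuclear-encoded counts in ND, 5.87% in HFD and 3.58% with HDCA. Mup7 had 338, 1977 and 117 CPM (-4.08, -4.20 to -3.97), Mup17 had 263, 5243 and 669 CPM (-2.97, -3.02 to -2.92) and Mup11 had 1223, 6009 and 1246 CPM (-2.27, -2.31 to -2.23). In each of these the HFD library was the high one, and the HDCA value was close to ND for Mup11, below ND for Mup7 and above ND for Mup17. Mup20, the pheromone darcin, had 24838, 20829 and 13799 CPM (-0.59, -0.61 to -0.58). Mup3 had 17659, 21925 and 19257 CPM (-0.19) and Mup21 had 183, 485 and 385 CPM (-0.33). These 3 members, with Mup10 at -0.87, were the measured Mup genes within 2-fold.

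The size of the Mup differences can be set beside sequence. Mup9, Mup11 and Mup2 had upstream sequences 98.4%, 98.7% and 98.0% identical to Mup17 and ratios of -3.66, -2.27 and -1.50. Mup4, Mup6, Mup3 and Mup21 were 79.2%, 80.4%, 74.6% and 72.1% identical to Mup17 and had ratios of -1.67, -1.57, -0.19 and -0.33. Mup14 and Mup18 were 92.0% and 93.2% identical, with ratios of -2.84 and -2.55, and Mup7 was 97.5% identical over the 121 columns that aligned. Members at least 92.0% identical to Mup17 upstream thus ranged from -4.08 for Mup7 to -0.87 for Mup10, and of those compared Mup3 and Mup21, the least alike, had the ratios nearest 0. Mup1, Mup12, Mup16 and Mup20 were not compared. At the 3′ end, all windows of Mup7, Mup1, Mup14, Mup2 and Mup10 occur in other genes, against 4.56% of those of Mup3 and 28.5% of those of Mup20. Mup17, Mup11, Mup9, Mup18, Mup12 and Mup16 lay between, at 59.5%, 72.4%, 81.8%, 85.8%, 87.2% and 90.9%. The split of counts among these members, Mup3 and Mup20 apart, is therefore uncertain, and so are their single ratios. The letters TTCNNNGAA, a STAT5 consensus searched on both strands, occur in the 250 bases before the start of 8.13% of 27025 genes and of 0 of 16 Mup genes in the table. These 16 are not the 16 measured genes, since they include the pseudogenes Mup-ps12 and Mup-ps16 and lack Mup1, Mup12, Mup16 and Mup20. Most are near-copies of each other, so 0 of 16 cannot show whether the family differs from other genes in this.

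Female-biased genes were mostly not measured in this comparison. Of 30 listed, 8 reached 100 counts over both libraries, and since genes absent from HFD could reach it only through the HDCA library, no median is given. Of these 8, 7 were at least 2-fold higher with HDCA, a count that the minimum favours. Cyp2b9 had 0.241 CPM in ND, 5.13 CPM in HFD and 207 CPM with HDCA, that is 1, 19 and 1188 counts. The HDCA library was the high one and was 39.3-fold above HFD (log2 5.30, 4.69 to 6.07). Cyp2b13, whose upstream sequence differs in 1 column of the stretch shown, was at 0 counts in ND and HFD and at 81 counts (14.1 CPM) with HDCA, at least 17.4-fold higher against a floor of 3 counts in the HFD library. The last 400 bases of the pair share no window of 50 bases. Cyp2a4, a steroid hydroxylase, had 3, 1 and 107 counts, a log2 ratio of 5.53 with a counting interval of 3.60 to 11.43. Its near-identical copy Cyp2a5 had 45.0, 143 and 161 CPM (0.17), and 33.3% of the Cyp2a4 windows are shared.

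Smaller ratios were seen for Abcd2, a peroxisomal fatty acid carrier, at 19.2, 11.9 and 41.5 CPM (1.79), the transcription regulator Trim24 at 9.62, 13.5 and 41.5 CPM (1.61), and Tox at 2.41, 4.05 and 15.2 CPM (1.87). In these the HDCA library was again the highest of the 3. Cyp17a1 did not reach 2-fold (0.70). Cyp2b10, the gene most used as a readout of the receptor CAR, had 15, 5 and 11 counts and was not measured.

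Genes of the growth hormone axis differed less. The receptor gene Ghr had 762 CPM in HFD and 699 CPM with HDCA (-0.12), Igf1 had 1264 and 948 CPM (-0.41) and Stat5b had 26.7 and 19.9 CPM (-0.43, -0.83 to -0.02). Of 9 measured genes, 2 were at least 2-fold lower. Onecut1, a liver transcription factor regulated by growth hormone, had 10.3, 64.3 and 11.7 CPM (-2.45, -2.87 to -2.06), and Lifr had 168, 239 and 114 CPM (-1.06, and -0.98 in thinned cells). Onecut1 in the HDCA library was close to ND, with HFD the high one. Prlr, the prolactin receptor and female-biased in liver, had 83.5, 88.3 and 175 CPM (0.98, 0.80 to 1.17), just under 2-fold. The feedback genes Socs2 and Cish had 47 and 31 counts in HFD and 20 and 20 counts with HDCA, under the count minimum. Y-linked genes, looked up after the other values were seen, were present in all 3 libraries, with Ddx3y at 101, 130.5 and 123 CPM, and Xist had 7, 1 and 3 counts.

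Fatty acid genes were described by role, from targets of PPARα to synthesis and storage. Of 28 measured PPARα targets, 5 were at least 2-fold higher with HDCA and 0 lower, with a median of 0.04, the same as over all measured genes. Cyp4a14, a fatty acid omega-hydroxylase, had 403, 149.7 and 617 CPM (2.04, 1.91 to 2.17). The HFD library was the low one for this gene. Acot3 and Acot4, peroxisomal thioesterases, had 2.89, 3.78 and 43.6 CPM (3.48, 2.75 to 4.42) and 83, 136 and 468 counts (1.15, and 0.71 in the pericentral range of the lobule score). Acot3 is also female-biased and stands on both lists. Vnn1, a pantetheinase, had 33, 74 and 267 counts (1.21, 0.84 to 1.61), the HDCA library having 46.6 CPM. The fatty acid carrier Cd36 had 31.3, 32.1 and 140.2 CPM (2.12, 1.85 to 2.42), while the left-out endothelial and Kupffer barcodes of HFD and HDCA had 782 and 404 CPM.

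Other PPARα targets stayed within 2-fold or were not measured. Cyp4a10 had 234, 239 and 180.4 CPM (-0.40, -0.53 to -0.27) and Cpt1a, which takes fatty acids into mitochondria, had 151, 302 and 262 CPM (-0.20). Cyp4a10 thus differed from Cyp4a14 in direction. The peroxisomal enzyme Ehhadh was at -0.10 and Ppara itself at -0.41 (43.1, 98.9 and 74.7 CPM). Of the targets under the count minimum, Pdk4, which restrains glucose oxidation, had 4 counts in HFD and 35 with HDCA (2.35, 1.01 to 4.45), the hormone gene Fgf21 had 7 and 42 counts (1.87, 0.79 to 3.35) and Acot2 had 15 and 46 counts (0.95, 0.12 to 1.93). All 28 genes of fatty acid oxidation were measured, 0 passed 2-fold in either direction, and their median was -0.04. The consensus of the peroxisome proliferator response element, a direct repeat searched on both strands, occurs upstream of 0.0407% of all genes and of 0 of 25 listed PPARα targets in the table. So rare a sequence is hardly to be met among 25 genes, so this 0 says nothing about the targets.

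Fatty acid synthesis genes were mostly higher with HDCA. Of 21 measured, 17 had a ratio above 0, 2 were at least 2-fold higher and 0 lower, with a median of 0.44. Over all measured genes 3723 of 6662 were above 0, with a median of 0.04. The share above 0 was about as large among the nuclear genes of oxidative phosphorylation (73 of 89, median 0.20). Me1, malic enzyme, had 198, 102 and 305 CPM (1.58, 1.42 to 1.74) and Acacb, the acetyl-CoA carboxylase that controls entry of fatty acids into mitochondria, had 23.6, 9.73 and 33.0 CPM (1.74, 1.24 to 2.32). In both, HFD was the low library. Acss2 had 115, 109 and 210.2 CPM (0.94), Acaca had 63.0, 32.1 and 59.7 CPM (0.89) and Fasn had 246, 229 and 379 CPM (0.73). Scd1, the stearoyl-CoA desaturase, went the other way at 9409, 3192 and 2426 CPM (-0.40, -0.43 to -0.36), and Srebf1 was at 0.29.

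Genes of lipid droplets and triacylglycerol turnover were mixed, with 3 higher and 2 lower of 23 measured. G0s2, an inhibitor of lipolysis, had 247, 56.7 and 195 CPM (1.78), and Angptl8, a feeding-regulated inhibitor of lipoprotein lipase, had 656, 24.6 and 99.6 CPM (2.01, 1.70 to 2.35). Both were lowest in HFD, and the HDCA level of Angptl8 remained far below ND. Plin5, a droplet coat protein, had 21.2, 44.3 and 17.4 CPM (-1.34, -1.72 to -0.98), Plin2 had 302, 217 and 284 CPM (0.39) and Lpin1, a phosphatidate phosphatase, had 44.3, 989 and 489 CPM (-1.02, -1.09 to -0.95, and -0.91 in the periportal range of the lobule score). None of 19 measured lipoprotein genes passed 2-fold, with Mttp at -0.09.

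Cholesterol synthesis genes were higher with HDCA almost throughout, though mostly within 2-fold. Of 27 measured, 26 had a ratio above 0 and 3 were at least 2-fold higher, with a median of 0.60. Among all 6662 measured genes 3723 were above 0 and 1.34% at least 2-fold higher, with a median of 0.04. The share above 0 was about as large among ribosomal protein genes (77 of 82), whose median was 0.26 with 0 past 2-fold. Sqle, squalene epoxidase, had 12.7, 53.0 and 99.4 CPM (0.91, 0.67 to 1.15). It was lowest in ND and highest with HDCA. Insig1, which holds back SREBP processing, had 432, 676 and 1243 CPM (0.88), and the past-2-fold genes were Pmvk at 30.8, 30.5 and 74.5 CPM (1.28), Mvd at 1.44, 6.21 and 19.9 CPM (1.65) and Acat2 at 42.6, 45.4 and 96.6 CPM (1.09, and 0.84 in the middle range of the lobule score). The transcription factor gene Srebf2 was level (0.03). Hmgcs1, an early enzyme of the pathway, had 139.7, 292 and 444 CPM (0.60, 0.50 to 0.71). Its promoter is shown because its upstream bases hold a sterol regulatory element, at chr13:119690151-119690350 on the plus strand, last 200 bases before the start, with capitals for the matches to TCACNCCAC and to CCAAT on the other strand.
Hmgcs1: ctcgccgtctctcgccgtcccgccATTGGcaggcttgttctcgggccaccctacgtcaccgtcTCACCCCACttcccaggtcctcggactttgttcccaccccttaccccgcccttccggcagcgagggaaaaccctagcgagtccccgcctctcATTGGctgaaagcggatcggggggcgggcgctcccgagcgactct
The sterol element lies 137 to 129 bases before the start and the CCAAT letters 176 to 172 and 45 to 41 bases before it. In the 250 upstream bases TCACNCCAC was found for 1.22% of 27025 genes and for 1 of 20 cholesterol genes in the table, and CCAAT for 37.5% of all and 18 of 20 cholesterol genes. A match is a description of letters and no evidence of binding.

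**Figure D3:**
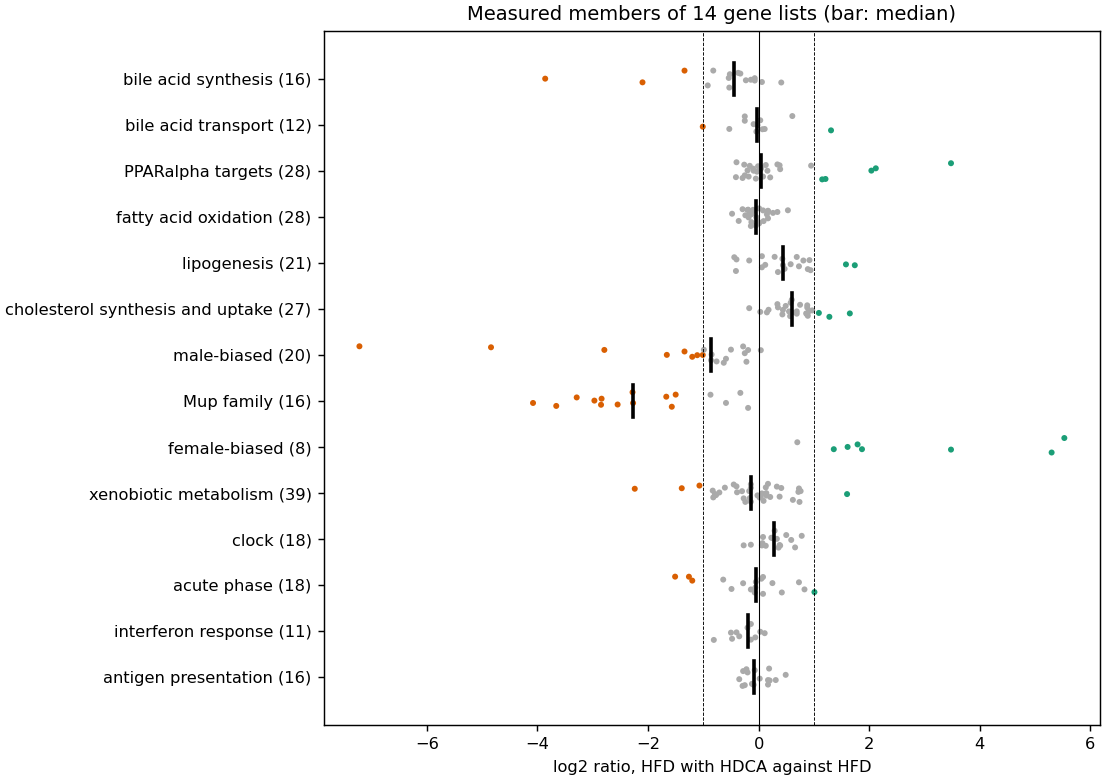
Log2 ratio of HDCA against HFD for each measured member of 14 gene lists (points, with the number measured in brackets), with dashed lines at 2-fold and a bar at each median except for the female-biased list. Mup and male-biased genes sit to the left, cholesterol synthesis genes mostly between 0 and 2-fold, and fatty acid oxidation around 0.

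Metal genes stood out for the metallothioneins, which bind zinc and copper. Mt1 had 97.4, 343 and 73.4 CPM (-2.22, -2.39 to -2.07) and Mt2 had 9.38, 42.7 and 2.09 CPM (-4.30, -5.33 to -3.50), from 158 counts in HFD and 12 with HDCA. HFD was the high library for both. The last 400 bases of each share no window with another gene. Left-out barcodes had 391 CPM (HFD) and 549 CPM (HDCA) of Mt1. The Mt2 promoter is shown for its metal response letters, at chr8:94172418-94172617 on the plus strand, 200 bases to the start. Capitals mark TGCGCTC, 128 to 122 bases before the start, and TGCACAC on the other strand, 50 to 44 bases before it.
Mt2: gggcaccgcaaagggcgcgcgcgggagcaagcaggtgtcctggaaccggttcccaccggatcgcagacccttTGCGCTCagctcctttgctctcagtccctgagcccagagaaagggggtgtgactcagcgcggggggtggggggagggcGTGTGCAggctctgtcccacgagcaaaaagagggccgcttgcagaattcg
Searched on both strands, TGCACNC occurs upstream of 11.8% and TGCGCNC of 14.0% of 27025 genes. Mt2 held 3 such elements in its 250 upstream bases, a number that 1.46% of genes reach, and Mt1 held 1. The metal transporter genes Slc39a14 and Slc30a10 differed less, at -0.32 and 0.21.

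Hamp encodes hepcidin, the iron hormone of the liver, and Hamp2 is a related gene that also stands on the female-biased list. Hamp had 6311, 2484 and 3628 CPM (0.55, 0.51 to 0.58) and Hamp2 had 107, 219 and 560.1 CPM (1.36, 1.24 to 1.47). Both were higher with HDCA than HFD, with Hamp highest in ND and Hamp2 highest with HDCA. The Hamp2 ratio was 0.79 in the pericentral range of the lobule score. Their 3′ ends share 17.1% of windows. Iron carriers were level, with Trf at 0.24, Tfr2 at 0.36 and the exporter Slc40a1 at -0.08.

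Of 39 measured genes of xenobiotic metabolism, 1 was at least 2-fold higher and 3 lower. Cyp2f2, a periportal cytochrome P450, had 1806, 1086 and 414 CPM (-1.39) and Ces3b, a carboxylesterase, had 216, 343 and 72.7 CPM (-2.24, -2.40 to -2.08). Cyp2c38 had 10.8, 11.9 and 36.5 CPM (1.60). Cyp3a11, the main Cyp3a of male mouse liver and a target of the bile acid sensor PXR, had 4559, 108 and 180.4 CPM (0.74, 0.57 to 0.91), so both fat-fed libraries were far below ND. Of 21 measured one-carbon genes, Bhmt alone passed 2-fold, the enzyme that remethylates homocysteine from betaine, at 1261, 1754 and 453 CPM (-1.95, -2.02 to -1.89). Mat1a (0.11), Gnmt (0.08) and Pemt (0.21) were within 2-fold.

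Retinoid and secreted protein genes were next. Of 14 measured retinoid genes, 3 were at least 2-fold higher: Rdh9 had 11.5, 29.4 and 85.6 CPM (1.54, 1.24 to 1.85), Rdh11 had 25.0, 28.6 and 67.0 CPM (1.22, and 0.88 in the middle range of the lobule score) and Cyp26a1, which clears retinoic acid, had 43.3, 10.5 and 22.8 CPM (1.10, 0.59 to 1.67, and 0.46 in the periportal range). All windows of the Rdh9 3′ end also occur in the near-identical Rdh16f1, so their counts cannot be told apart. Serpina7, the thyroxine carrier, had 16.8, 34.9 and 121 CPM (1.79, 1.52 to 2.08) and Serpina6, the glucocorticoid carrier, had 82.5, 147 and 349 CPM (1.24). Both carriers were lowest in ND and highest with HDCA. Serpina12 (65.4, 105 and 33.8 CPM, -1.63) and Serpina3k (7373, 9509 and 4127 CPM, -1.20) were lower. Igfbp2, a growth factor binding protein, had 494, 344 and 114 CPM (-1.60), and the hepatokine gene Enho had 9.38, 22.2 and 7.67 CPM (-1.52, but 0.14 in the periportal range, from 13 and 25 counts).

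Of 19 measured early response and heat shock genes, which cell handling also induces, 2 were at least 2-fold higher and 1 lower, with a median of 0.15. Nr4a1 had 134, 82.9 and 176 CPM (1.08, and 0.86 with cells weighted equally), Fosb had 16.4, 17.0 and 36.5 CPM (1.09, and 0.49 with cells weighted equally) and Gadd45g had 50.7, 206 and 89.0 CPM (-1.21, and -0.75 in the periportal range). Dusp1 (0.89), Atf3 (0.72) and Fos (0.57) were within 2-fold, and the part of cell handling in the differences was not tested. Of 16 measured genes of endoplasmic reticulum stress, 1 passed 2-fold, Ddit3 at 14.2, 12.4 and 25.8 CPM (1.04, and under 2-fold in 6 of 19 other settings), and the median was -0.08.

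Acute phase and junction genes added single members. The acute phase genes Saa1 and Saa2 had 42.3, 99.1 and 34.7 CPM (-1.51) and 16.1, 23.5 and 9.77 CPM (-1.26, and -0.59 in the middle range), with Saa1 high in HFD. Apcs had 76.7, 53.5 and 108 CPM (1.01, and under 2-fold in 11 of 19 other settings), and Hp (0.05) and C3 (-0.04) were level. Fkbp5, a glucocorticoid target, had 17.1, 72.4 and 31.4 CPM (-1.20), while Sgk1, also a target, had 71.9, 21.9 and 63.0 CPM (1.52), with 661 and 1307 CPM in the left-out barcodes. Cdh1, E-cadherin, which periportal hepatocytes hold, had 94.3, 39.4 and 4.88 CPM (-2.99, -3.65 to -2.42), from 28 counts with HDCA. Of 18 measured clock genes 16 had a ratio above 0 and none passed 2-fold, with a median of 0.28, and time of day at isolation is not given. Over all measured genes 3723 of 6662 had a ratio above 0. The ribosomal protein genes (77 of 82 above 0, median 0.26) and the nuclear genes of oxidative phosphorylation (73 of 89, median 0.20) lay about as far above 0 as the clock genes, with 0 and 1 past 2-fold.

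The measured genes of antigen presentation (16 of 23) and interferon response (11 of 23) were within 2-fold. Cd1d1, which presents lipids to natural killer T cells, had 215, 231 and 266 CPM (0.20, 0.08 to 0.32), 0 of 8 measured genes that load it passed 2-fold, and B2m was at -0.29. Of the 11 measured interferon response genes, 9 were below 0, with a median of -0.20, while 3723 of all 6662 measured genes were above 0. In cells thinned to 500 UMIs the median of the interferon list was 0.12, so its direction changed with the setting. Under the count minimum, Ifit1 had 47 and 31 counts (-1.22, -1.93 to -0.55), and the class II gene H2-Aa had 10 and 37 counts (1.21, 0.22 to 2.43), with 421 and 1033 CPM in the left-out barcodes. Transcripts of the GLP-1 receptor gene Glp1r and of Gipr were at 0 counts in both libraries, and the glucagon receptor gene Gcgr had 133, 127 and 92.3 CPM (-0.46). A count of 0 allows up to 3 counts at this depth.

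Within each library the kept cells were ranked by a score of 7 pericentral against 7 periportal landmark genes and cut into 3 ranges of equal size, called pericentral, middle and periportal. They are ranges of a score and not cell types. The landmarks' own values are no result. Glul, which is no landmark, stood at 258, 93.0 and 56.5 CPM in the pericentral, middle and periportal ranges of HFD and at 618, 98.4 and 31.4 CPM with HDCA, highest in the pericentral range of each. Cells of the ranges differed in depth, with median nuclear UMIs of 728, 557 and 1433.5 in HFD and 1001, 842 and 2437 in the HDCA library, and the part of this in the values was not tested.

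Cyp7a1 was lower with HDCA in every range. It had 348, 302 and 55.9 CPM in the pericentral, middle and periportal ranges of HFD and 37.9, 10.8 and 0.730 CPM with HDCA, for ratios of -3.19 (-3.59 to -2.82), -4.75 and -5.94 (-9.33 to -4.36). The HFD level was thus lowest in the periportal range, and the counting intervals of the outer ranges did not overlap. Cyp27a1 ran from -0.51 (pericentral) to -1.64 (periportal), while Cyp8b1 ran the other way, from -1.23 to -0.52. Cyp2c70 was about as much lower in each range (-1.92, -2.18 and -2.16).

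Other genes differed between ranges in size. Cyp2b9 with HDCA was highest pericentrally, at 381, 230.1 and 83.6 CPM, against 8.30, 1.11 and 5.02 CPM in HFD. Cd36 with HDCA had 351 and 111 CPM in the pericentral and middle ranges against 71.4 and 16.6 CPM in HFD, while its periportal ratio of 0.38 (-0.43 to 1.29) held 0. The fatty acid synthesis genes Acly and Fasn had larger ratios pericentrally, with Acly at 1.39, 0.71 and 0.45 and Fasn at 1.33, 0.78 and 0.44 in the pericentral, middle and periportal ranges, while the sterol gene Hmgcs1 was even at 0.64, 0.65 and 0.62. Cyp4a14 was higher in each range (2.18, 2.17 and 1.83). Hamp ran from -0.27 (-0.33 to -0.20) pericentrally to 1.33 (1.26 to 1.39) periportally, so its sign differed between the outer ranges. Mup11 ran from -1.70 to -4.15 and Cyp4a12a from 0.30 to -1.25.

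**Figure D4:**
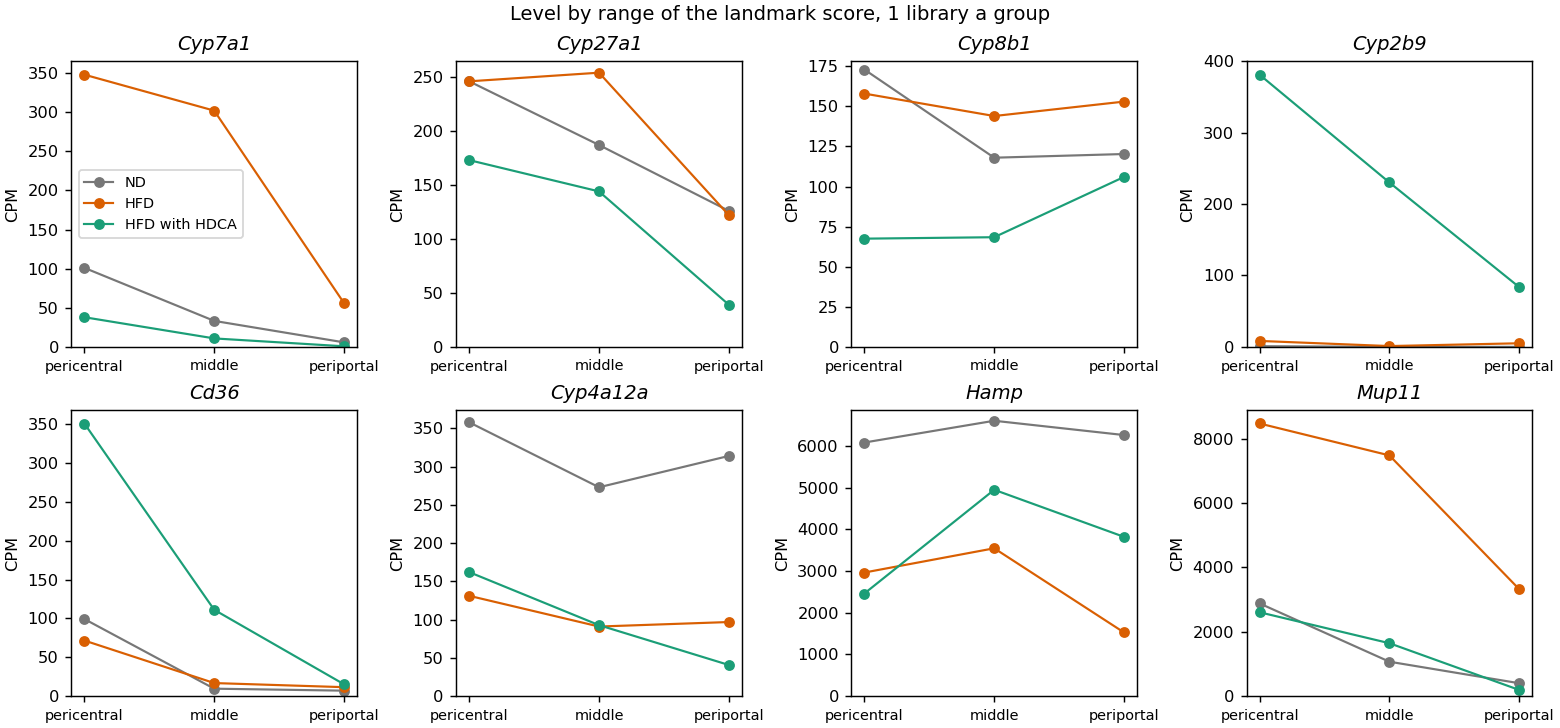
CPM of 8 genes in the pericentral, middle and periportal range of each library's cells, 1 library a group, with no error bars since each range has 1 value. Cyp7a1 in HFD falls from 348 to 55.9 CPM, Cyp2b9 in the HDCA library falls from 381 to 83.6 CPM, and Hamp lines of HFD and HDCA cross. Ranges of the same name cover different scores in each library.

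Shares of cells with a UMI were compared after thinning every cell to 500 nuclear UMIs, which left 1947 HFD and 2767 HDCA cells, with medians of 1372 and 1098 nuclear UMIs before thinning, and dropped 916 and 175 that were shallower. Left-out endothelial and Kupffer barcodes had medians of 854 and 897 UMIs, and their shares below are also those of cells thinned to 500 UMIs. Cells with a UMI of Cyp7a1 were 10.0% (8.72 to 11.4%) in HFD and 0.578% (0.331 to 0.937%) with HDCA, against 18.7% and 2.18% unthinned, and ND had 2.06%. No thinned left-out cell had one, 0 of 26 in HFD and 0 of 54 with HDCA, for which 3 cells of the total are 11.5% and 5.56% and the exact upper limits 13.2% and 6.60%. Unthinned, the left-out barcodes had 60.1 CPM (HFD) and 0 CPM (HDCA) of Cyp7a1. Selenbp2 was seen in 21.9% (20.1 to 23.8%) of HFD cells and 0.108% (0.0224 to 0.317%) of HDCA cells, or 41.1% and 0.578% unthinned, with 1 of 26 and 0 of 54 left-out cells. For genes at such levels the share of cells thinned to 500 UMIs largely follows from the CPM, so these shares are no separate result.

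Shares for higher genes, which likewise depend on their CPM, were larger with HDCA. Cyp2b9 was seen in 0.154% of HFD cells and 9.22% (8.16 to 10.4%) of HDCA cells, or 0.559% and 25.2% unthinned. Thinned left-out cells with it were 0 of 26 and 0 of 54, while the unthinned left-out barcodes had 0 CPM (HFD) and 32.3 CPM (HDCA). Cyp4a14 was in 5.96% (4.95 to 7.10%) and 22.3% (20.7 to 23.9%), Hamp2 in 8.27% and 23.6%, and Insig1 in 28.8% and 44.8%. In the left-out cells these 3 genes were in at most 3.85% (HFD) and 9.26% (HDCA). Cd36 was in 1.69% and 6.69% of kept cells and in 26.9% and 20.4% of left-out cells. Mup7 was in 57.8% (55.6 to 60.0%) and 7.37% (6.43 to 8.41%), against 3.85% of left-out HFD cells. Mup17 was in 59.4% and 24.6% of kept cells and in 34.6% and 7.41% of left-out cells. Bhmt was in 57.8% and 18.3%, with 7.69% and 7.41% of left-out cells. Cd1d1 was in 11.4% (9.98 to 12.8%) and 11.6% (10.5 to 12.9%), with intervals that overlap almost wholly.

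**Figure D5:**
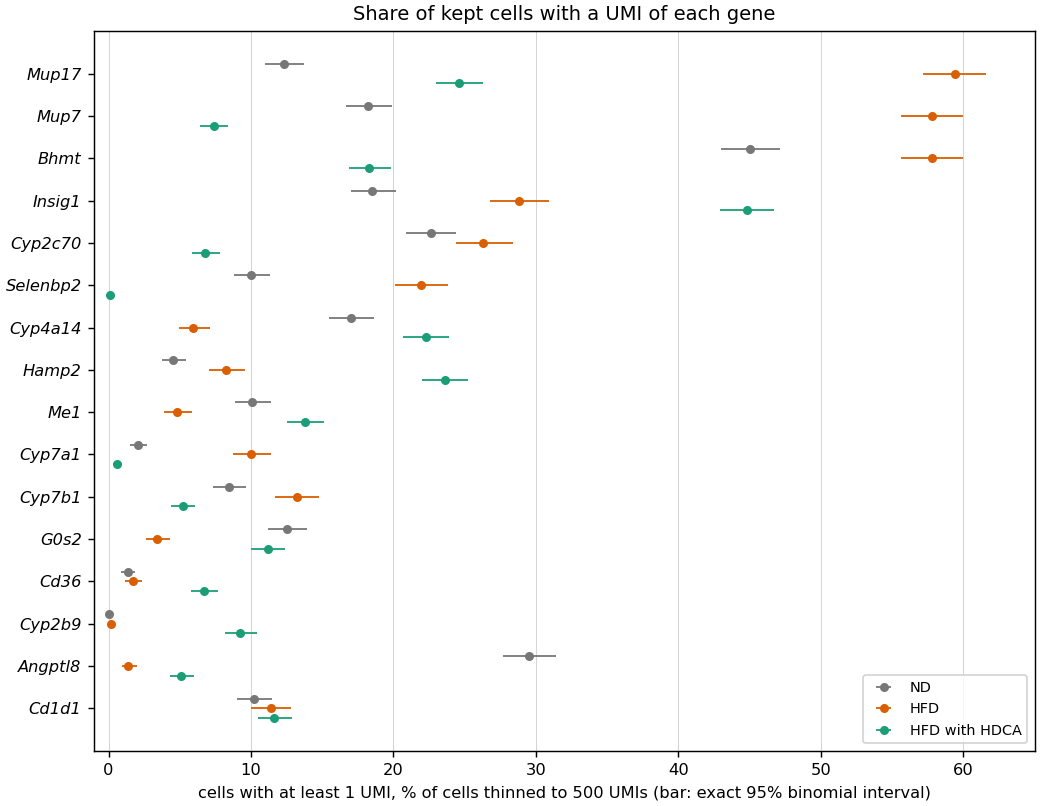
Percent of kept cells with at least 1 UMI of 16 genes after thinning to 500 UMIs per cell, with bars for exact 95% binomial intervals, in ND, HFD and the HDCA library. Among others, the HFD share is highest for Mup17, Mup7, Bhmt and Selenbp2, the HDCA share is highest for Insig1, Cyp4a14, Hamp2 and Cyp2b9, and the Cd1d1 shares overlap.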

How the data were processed

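The authors deposited UMI counts per gene and barcode, made with Cell Ranger 5.0.0 per the file headers and on build mm10 per the submitters' processing notes, and the choice of barcodes is not given in the sources used here. In all, the 3 libraries held 5755 ND, 6290 HFD and 4873 HDCA barcodes. Kept cells had 4157680, 3701480 and 5733247 nuclear-encoded counts, which were summed per library and expressed as CPM with exact Poisson intervals. Ratios used 0.5 added to each count and exact conditional binomial intervals, and shares used exact binomial intervals, all 95%. A difference was counted from 2-fold among genes with at least 100 counts over both libraries. No doublet caller was run and doublets were not removed, and free RNA was not corrected for. The calculation was tested on simulated data.

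Named genes came from the top 15 and bottom 15 ratios of measured genes reaching 50 CPM in the library where they were higher, provided that left-out barcodes had no more, without mitochondrial, ribosomal protein, unnamed, Xist and Y-linked genes. To these were added fixed core genes, up to 6 members in each direction past 2-fold and the member nearest 0 of each of 40 gene lists, and near-identical copies. Other genes were picked with their values in view, as stated beside them. The kept cells, lists and rules were chosen with earlier results of these data known. Some genes meeting this rule are left out of the text. Of 19 alternatives, 2 were chosen after seeing the data: leaving out cells with haemoglobin counts, and a total without Mup genes. Transcript ends came from GENCODE M21, where 32158 of 32285 features matched, and promoters from the RefSeq table on GRCm38.p6, where 16 of 24 Mup genes matched. Software was Python 3.11.15, numpy 2.4.6, scipy 1.17.1, pandas 2.3.3, matplotlib 3.10.9, and R 4.3.3 with edgeR 4.0.16, used only for its TMM factors.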

Additional observations from a re-analysis of the deposited data

How the results depend on the processing

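Against 89 higher and 91 lower genes as reported, a minimum of 20 counts gave 321 and 223 genes and a minimum of 500 counts gave 22 and 36, from 9884 and 2537 genes tested. Cells thinned to 500 UMIs gave 33 and 45 genes of 3036, the pericentral range of the lobule score gave 52 higher, the middle range 33 higher and 52 lower, and the periportal range 58 lower, each with fewer genes tested. The other settings (2 other scalings, a total without the 50 most abundant genes, 5 added to each count, equal weight per cell, other limits on mitochondrial share, genes per cell and markers, no genes higher in left-out barcodes, no shared barcodes, and the 2 chosen after seeing the data) kept both counts within 1.5 times of the reported ones. Of 93 genes past 2-fold that stand on the lists or are named, 68 kept it in every setting that gave them a value. The other 25 came under it in at least 1 of 19, Apcs in 11, Ddit3 in 6 and Cyp2c54, Cyp26a1 and Srd5a1 in 4 each. Hba-a1, Hba-a2 and Hbb-bs had values in 18 settings, since leaving out cells with haemoglobin counts removes their counts. In the periportal range the ratio of Enho was 0.14 and that of Cyp2c54 0.03, both lower as reported (-1.52 and -1.07), and the cause was not tested. Among 760 list medians 40 changed sign, in 16 lists whose reported medians lay between -0.20 and 0.30. No paired analysis was possible because each diet has 1 library. Leaving out a library was not possible for the same reason. Depth limits genes under 20 counts in a library, which were 9 of the higher and 4 of the lower genes.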

Other observations

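Genes outside the lists, chosen after their values were seen, also differed between the HDCA and HFD libraries. Rad51b, a recombination repair gene, had 1.44 CPM in ND, 1.62 CPM in HFD and 29.3 CPM with HDCA, a log2 ratio of 4.06 with a counting interval of 3.02 to 5.64. Zfp992 had 9.38, 4.05 and 26.5 CPM (2.67), Raet1d, a ligand of the natural killer receptor NKG2D, had 9.62, 2.43 and 16.0 CPM (2.65), and Wfdc2 had 14.0, 6.21 and 29.7 CPM (2.23). Gas6 had 3.37, 5.67 and 27.9 CPM (2.27), with 150.3 and 161 CPM in the left-out barcodes of HFD and HDCA. Fst, follistatin, had 38.5, 9.46 and 32.3 CPM (1.75). For Fst, Zfp992, Raet1d and Wfdc2 HFD was the lowest of the 3 libraries, though HFD below HDCA follows from their choice.

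Lower genes outside the lists included Slc22a7, an organic anion carrier, with 15.9, 25.1 and 4.01 CPM (-2.62), Phlda1 with 90.0, 322 and 73.8 CPM (-2.13), and Rarres1, retinoic acid responsive by name, with 26.0, 67.5 and 16.9 CPM (-1.99). Foxq1, a transcription factor, had 58.4, 123 and 33.3 CPM (-1.88) and Gpcpd1, a glycerophosphocholine enzyme, had 42.6, 177 and 49.5 CPM (-1.84). HFD was the highest of the 3 libraries for each of these 5 genes, though HFD above HDCA follows from their choice. Srd5a1, steroid 5-alpha reductase, had 94.0, 59.7 and 29.7 CPM (-1.01), under 2-fold in 4 of 19 other settings.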
